A study of Homo sapiens with 5 samples.

Results

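The replication-dependent histone gene clusters were examined as 4 windows of the hg19 genome. They cover 26015 to 26290 kb, 27090 to 27120 kb and 27770 to 27870 kb of chromosome 6, and 149780 to 149870 kb of chromosome 1, 495 kb in all. Members were all SMAD2 peak summits inside these windows, taken by position and not by score. The names histone summit and histone region mark this position only, and no member was placed on a gene. The members were chosen with earlier results of these data known. There were 426 member summits of 233945 over the 4 libraries, and they formed 203 of 115321 regions when summits at most 200 bp apart were joined. SMAD2 was immunoprecipitated from T47D, an established luminal line derived from a breast tumour and positive for the estrogen receptor. Activin A was given to all cells at 50 ng/ml for 1.5 h, alone in 2 libraries and with palbociclib at 1 µM for 24 h in 2 others. No library without activin was analysed here, and the sources do not say whether the replicates came from separate cultures, so their spread may be technical.

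Histone genes of these clusters encode the core histones H2A, H2B, H3 and H4 and the linker histone H1. They are small genes without introns in most cases, whose messenger RNAs end in a stem-loop in place of a poly(A) tail. Their transcription is known to be tied to S phase, when new chromatin is assembled, and it is switched on by cyclin E and CDK2 acting on the coactivator NPAT. Palbociclib inhibits CDK4 and CDK6, the kinases that act upstream of this step in G1. SMAD2 is the transcription factor that activin receptors phosphorylate. It enters the nucleus in complex with SMAD4.

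In the neighbour order of RefSeq on GRCh38.p14, the histone genes formed runs of 32 genes (H1-1 to H4C8), 5 genes (H2BC11 to H2AC12) and 16 genes (H2BC13 to H2BC17) on chromosome 6, and of 11 genes (H2BC18 to H2AC21) on chromosome 1. The run of 32 held 5 H1, 4 H2A, 8 H2B, 7 H3 and 8 H4 genes. Promoter sequences were given for 59 of these 64 genes. The SMAD motif CAGAC (either strand) was present in the 250 bases before the start of 18 of the 59 (30.5%), against 37.8% of all 27305 promoters. The SMAD palindrome GTCTAGAC was in 0 of the 59 and in 0.176% of all. The GC-rich SMAD motif GGCGC was in 29 of the 59 (49.2%), against 44.2% of all, and the AP-1 motif TGACTCA in 0, against 4.16%. Histone promoters differed in other letters: CCAAT was in 84.7% against 33.0%, TATAAA in 66.1% against 11.1%, and the octamer ATTTGCAT in 40.7% against 1.66%, the latter in 10 of 14 H2A and 13 of 16 H2B promoters and 0 of 12 H4 promoters. Some H2A and H2B promoters are nearly the same stretch read from opposite strands, for example H2BC11 and H2AC11. H3C4 and H2AC7 were given the same sequence. A motif in such a stretch counts for both genes, so the 59 are not all separate promoters. These matches are descriptions of letters in a window, not binding sites. The first H1, H2B, H3 and H4 promoters given for the run of 32 are shown to compare the letters of these classes. No H2A promoter is shown. Each sequence is 250 bases from RefSeq on GRCh38.p14, 5′ to 3′ toward the gene. The SMAD motif CAGAC, the CCAAT box, the TATA box and the octamer are in capitals wherever they occur on either strand.
H1-1 (chr6:26017788-26018037, minus strand): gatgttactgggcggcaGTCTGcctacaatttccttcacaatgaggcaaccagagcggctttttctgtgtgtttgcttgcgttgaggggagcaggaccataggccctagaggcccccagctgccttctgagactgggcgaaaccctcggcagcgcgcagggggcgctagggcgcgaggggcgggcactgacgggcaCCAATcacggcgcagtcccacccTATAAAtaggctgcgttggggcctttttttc
H2BC3 (chr6:26043714-26043963, minus strand): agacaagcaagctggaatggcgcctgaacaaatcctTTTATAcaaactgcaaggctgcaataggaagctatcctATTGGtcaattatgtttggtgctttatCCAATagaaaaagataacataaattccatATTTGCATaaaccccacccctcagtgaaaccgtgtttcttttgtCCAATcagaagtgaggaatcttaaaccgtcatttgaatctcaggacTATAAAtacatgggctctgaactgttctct
H3C1 (chr6:26020201-26020450, plus strand): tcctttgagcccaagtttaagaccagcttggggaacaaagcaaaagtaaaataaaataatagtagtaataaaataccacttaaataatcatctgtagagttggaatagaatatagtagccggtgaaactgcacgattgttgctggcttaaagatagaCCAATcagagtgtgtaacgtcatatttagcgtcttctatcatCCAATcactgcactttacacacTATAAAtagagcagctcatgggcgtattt
H4C2 (chr6:26027284-26027533, minus strand): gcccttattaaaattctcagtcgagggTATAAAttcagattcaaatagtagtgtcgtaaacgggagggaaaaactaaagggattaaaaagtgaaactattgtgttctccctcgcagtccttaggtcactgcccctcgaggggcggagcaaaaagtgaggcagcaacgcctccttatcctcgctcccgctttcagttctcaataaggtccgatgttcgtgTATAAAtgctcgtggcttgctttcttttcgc
Among these 4, only H1-1 holds CAGAC (once, on the opposite strand), and only H2BC3 holds the octamer, beside 3 CCAAT boxes. The first H2A promoter given for the run, H2AC4, is not shown and holds CAGAC 2 times. H4C2 holds TATAAA but no CCAAT. The summits themselves were not placed on single genes, because the gene table and the summit lists are on different builds.

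SMAD2 summits were denser in the histone windows than over the genome. Activin replicates 1 and 2 listed 97 and 96 summits in the windows, and palbociclib replicates 1 and 2 listed 108 and 125. Both palbociclib libraries were above both activin libraries. The group values were 96.5 ± 0.707 with activin and 116.5 ± 12.02 with palbociclib (SD, n = 2 each), 1.21-fold as many, a gap larger than either SD. An exact permutation test (two-sided, 4 libraries) gave p = 0.333, the smallest that 2 against 2 allow. Whole lists differed by the same factor of 1.21, and the shares of the lists that fell in the windows overlapped between treatments. With activin alone these were 0.188% (95% Clopper-Pearson interval 0.153 to 0.230) and 0.177% (0.143 to 0.216). After palbociclib they were 0.172% (0.141 to 0.207) and 0.192% (0.160 to 0.228), with exact permutation p = 1. These intervals cover counting error only. Density was 194 to 196 summits per Mb with activin alone, and 218 and 253 after palbociclib, beside 17.5 to 22.2 per Mb over the genome. The chromosome 6 sequence between the first and second windows held 31.3 to 42.5 per Mb, the 500 kb before the first window 8 to 20, and the 500 kb after the last 46 to 60. On chromosome 1 the contrast was smaller on one side. Its window held 122 to 189 summits per Mb, the 500 kb after it 80 to 102 and the 500 kb before it 8 to 12.

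By window, the counts differed in opposite directions. The 275-kb window on chromosome 6 held 59 and 58 summits with activin and 73 and 74 with palbociclib. The groups did not overlap there. The palbociclib mean was 1.26-fold the activin mean in this window, beside 1.21-fold for whole lists. These counts by window were not adjusted for list length. In the 100-kb window the counts were 19 and 21 against 21 and 34, and in the 30-kb window 2 and 4 against 3 and 6, so the groups met or overlapped. The 90-kb window on chromosome 1 went the other way, with 17 and 13 against 11 and 11. Exact permutation p was 0.333 for the 275-kb and chromosome 1 windows and 0.667 for the other 2. The chromosome 1 cluster contains near-identical gene copies (such as H2AC18 and H2AC19), among which short reads are hard to assign. Whether this bears on the counts of the window was not tested. In each list 5 to 11 summits of the window lay in the stretch from 149815103 to 149821741, which was not placed on genes. The highest score there was 22.0. This stretch was singled out after its values were seen.

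**Figure D1:**
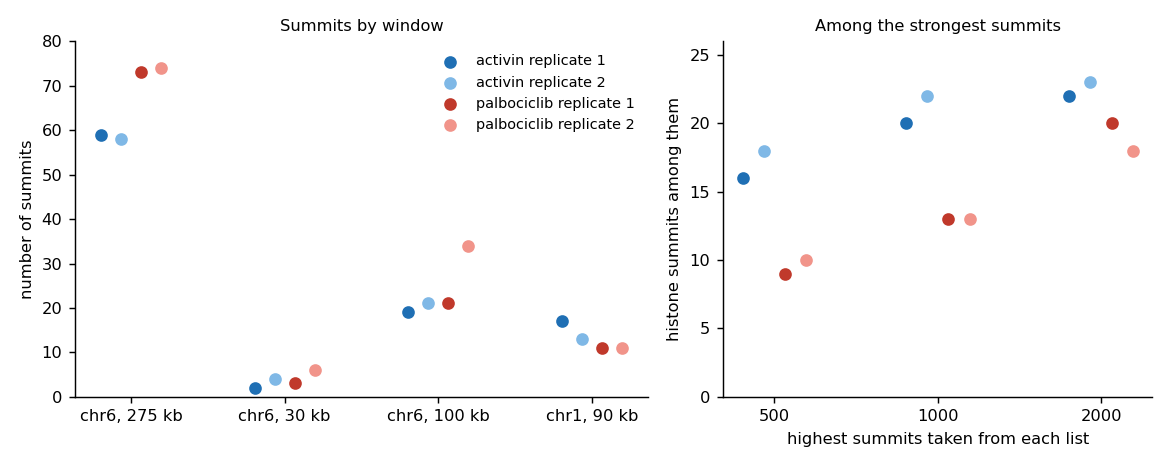
Number of summits per library in each histone window (left, y axis: summits) and number of histone summits among the highest 500, 1000 and 2000 of each list (right). Counts on the left are not adjusted for list length. Each point is 1 library; in the 275-kb window both palbociclib libraries (73 and 74) lie above both activin libraries (59 and 58), while among the highest 1000 the order is reversed (20 and 22 with activin, 13 and 13 with palbociclib).

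Histone summits were concentrated at the top of the lists. A summit's score was read as the authors' −log10 q, and its rank is its place in its own list, with 1 the strongest. The strongest 10% of each list held 26 of 97 and 27 of 96 member summits with activin, and 22 of 108 and 22 of 125 with palbociclib, where an even spread would give 10%. At the same time 42 to 54 members of each library were in the weaker 50% of the list (43.2% to 44.4%). In the strongest 10% of every list were 18 of the 203 histone regions (8.87%), beside 3634 of all 115321 regions (3.15%). Each of the 18 spanned 7 to 135 bp over the 4 libraries, with a median of 21 bp. The joining of summits at short gaps limits these spans, and strong places whose summit lay elsewhere in 1 or more libraries are not among the 18. Over all 44 histone regions found in every library the median span was 43 bp, and 244 bp for the 7 on chromosome 1, beside 77 bp for all 23476 such regions. In the 275-kb window 12 of the 18 strong regions stood 4.81 to 85.05 kb apart (median 11.98 kb). Between them lay weaker summits, but also strong ones outside the strongest 10% of every list. Examples were 26156592 to 26156594 (scores of 292, 390 and 391 in 3 libraries) and 26250824 to 26250829 (202 and 213, activin only).

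**Figure D2:**
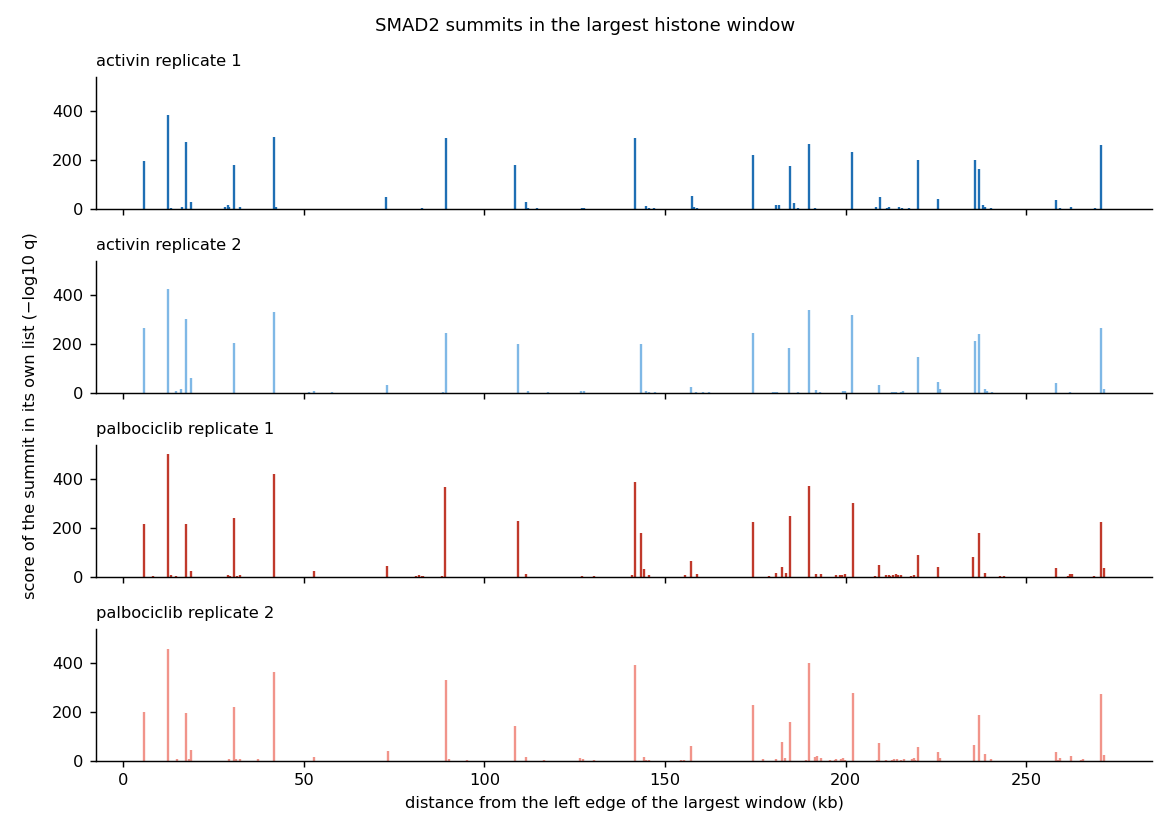
Score (−log10 q, y axis) of each SMAD2 summit in the 275-kb window on chromosome 6, by distance in kb from its left edge, with 1 panel per library. Some tall summits stand at the same positions in the 4 panels, for example the strongest at scores of 384, 427, 503 and 458. Others do not, for example 26156592 to 26156594, without a summit in activin replicate 2, and 26250824 to 26250829, found with activin only. Scores belong to their own list.

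The strongest histone region lay at chromosome 6, 26027473 to 26027484. It ranked 63 and 54 with activin alone (replicates 1 and 2), then 85 and 74 after palbociclib, and ranks are given in this order from here on. Next by worst rank was 26056661 to 26056675, with ranks of 137 and 104, then 146 and 158. The region on chromosome 1 at 149858357 to 149858372 was the strongest of its window, at 106 and 82, then 152 and 173. In these 3 regions both palbociclib ranks were weaker than both activin ranks. A pair of regions of the 275-kb window had ranks that overlapped between treatments, namely 26204870 to 26204904 (201 and 94, then 238 and 119) and 26104215 to 26104256 (148 and 268, then 241 and 211). The strongest of the 100-kb window, 27860929 to 27860936, stood at 256 and 143, then 380 and 219. The strongest of the 30-kb window, 27114911 to 27114922, stood at 415 and 360, then 957 and 931, with no overlap. Of the other regions among the 15 strongest by worst rank, 27777858 (442 and 406, then 444 and 294) and 27806341 (1726 and 601, then 1075 and 1223) overlapped. In 26216885, 26045634, 26285685, 26189303, 26020696 and 26032289 the palbociclib ranks were both weaker.

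After palbociclib, fewer histone summits were among the highest 500, 1000 and 2000 of the SMAD2 ranking. Histone regions found in every library stood lower in the median. Among the highest 1000 summits of each list, 20 and 22 were histone summits with activin and 13 and 13 with palbociclib, or 21.0 ± 1.41 and 13 ± 0 (SD, n = 2 each). Among the highest 500 the counts were 16 and 18 against 9 and 10. Among the highest 2000 they were 22 and 23 against 20 and 18, a smaller gap. The groups did not overlap at these 3 depths, with exact permutation p = 0.333 for each. Among the highest 100 they overlapped (1 and 3 against 1 and 1, exact permutation p = 1). These depths were chosen after seeing the data. The counts take in all histone summits, also those of regions not found in every library. Because list lengths differ, ranks were also taken anew in each library over the 23476 regions found in every library, of which 44 were histone regions. The median histone rank was 4317.5 and 2817.5 with activin, and 8317 and 8020.5 with palbociclib. Both palbociclib medians were weaker than both activin medians (exact permutation p = 0.333). The median difference in log2 rank, palbociclib minus activin, was 0.45 over the 44 regions (25th to 75th percentile 0.12 to 1.1) and −0.01 over all 23476. A positive value means a weaker rank after palbociclib.

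Of the 44 histone regions, 25 (56.8%) ranked lower in both palbociclib libraries than in both activin libraries, against 19.7% of all regions found in every library. In the opposite direction there were 2 (4.55%), against 20.3%. This count of 2 was 6 without activin replicate 1 (11.8%, against 36.2% of all), 7 without activin replicate 2 (14.6%, against 37.4%), and 4 without palbociclib replicate 2 (8.89%, against 33.8%). The remaining 17 overlapped between treatments. Within the strongest 10% of the shared regions, which held 19 histone regions, 14 (73.7%) ranked lower in both palbociclib libraries, against 21% of all 2348 regions of that 10%. None of the 19 ranked higher (0, against 23.7%). The median difference of these 19 was 0.97, beside −0.11 for all regions of that 10%. Lower ranks were spread over the windows: 14 of 25 shared regions in the 275-kb window, 1 of 2 in the 30-kb window, 6 of 10 in the 100-kb window and 4 of 7 on chromosome 1. The median ranks of the chromosome 1 regions overlapped between treatments, at 17519 and 14484 with activin alone, then 15417 and 20017 (exact permutation p = 0.667). In the other 3 windows they did not overlap (exact permutation p = 0.333 each). The 30-kb window had only 2 shared regions, with close medians of 8913 and 9495 with activin, then 11087 and 9725.5 after palbociclib. The scores of the 19 did not show this order. Their median score was 220 and 246 with activin alone, then 241 and 226 after palbociclib, while the 99th percentile of the whole list was 188 and 195 with activin and 269 and 238 with palbociclib. Sequencing depth is unknown for these lists and moves scores, and its part in the rank difference was not tested.

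**Figure D3:**
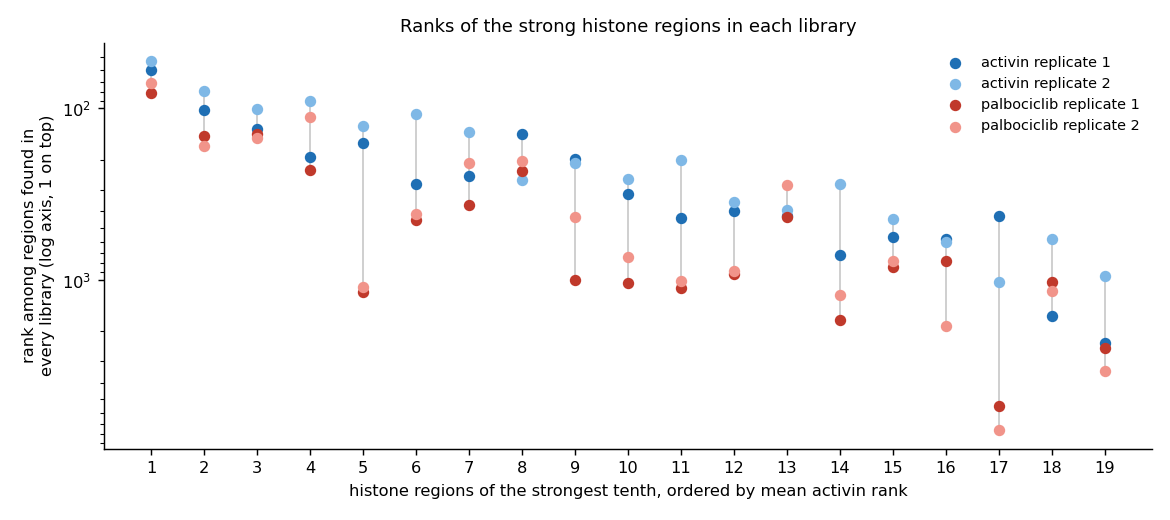
Rank among the 23476 regions found in every library (log axis, 1 on top) for the 19 histone regions of the strongest 10%, ordered by their mean activin rank. Points are libraries and grey lines join the 4 ranks of a region; in 14 of the 19 both palbociclib points lie below both activin points.

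**Figure D4:**
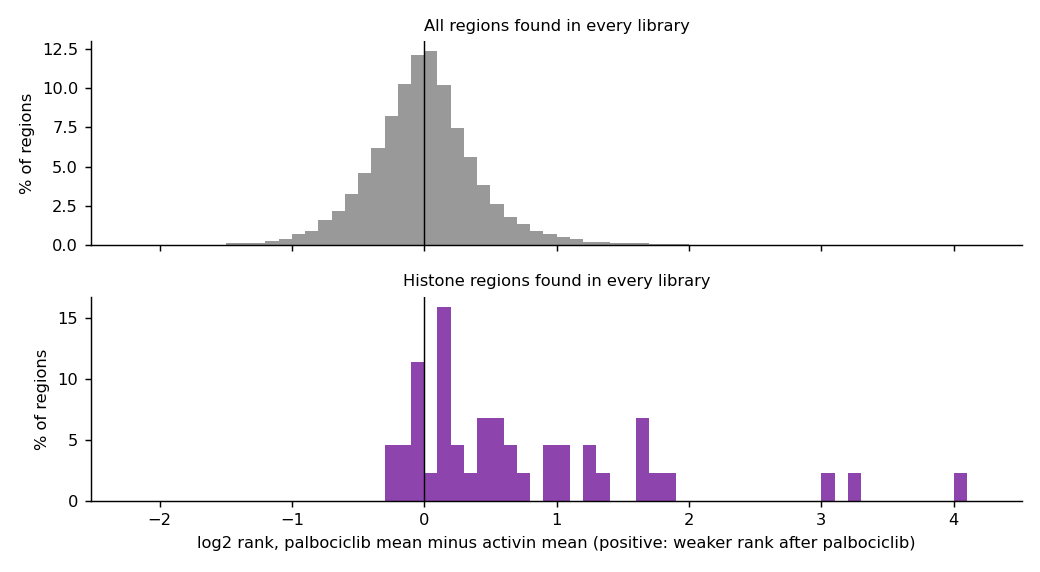
Distribution of the log2 rank difference (palbociclib mean minus activin mean, x axis) as percent of regions (y axis), for all 23476 regions found in every library (top) and the 44 histone regions (bottom). The histone regions lie mostly right of 0, with a median of 0.45, and 3 of them lie beyond 3.

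The 3 largest drops in rank over all 23476 shared regions were histone regions. This count of 3 was 2 without activin replicate 1, without activin replicate 2 or without palbociclib replicate 1, and 1 without palbociclib replicate 2. The largest, on chromosome 6 at 27835234 to 27835372 in the 100-kb window, had list ranks of 1568 and 459 with activin and 16466 and 14927 with palbociclib. Its log2 rank difference was 4.04. Scores there were 123 and 205, then 24.6 and 26.3. Both palbociclib libraries also held a summit of their own 2112 bp to the left, at 27833121 and 27833122, with scores of 77.4 and 93.5, which neither activin library listed. The second, 26235169 to 26235198 in the 275-kb window, ranked 440 and 1082, then 5995 and 8575, a difference of 3.28. Its scores of 200 and 149 stood beside 87.7 and 56.4. The third, 26032289 to 26032311, ranked 167 and 132, then 1226 and 1162, a difference of 3.01, with scores of 277 and 301, then 214 and 195. In each of the 3 the groups were far apart and the 4 summits lay within 139 bp. Among the 100 largest drops (0.426% of all shared regions) 6 were histone regions, which is 13.6% of the 44. Among the 235 largest (1% of all shared regions) there were 9, or 20.5%. The log2 rank differences spread more widely among strong regions. Their 25th to 75th percentiles were −0.51 to 0.39 in the strongest 10% of shared regions, against −0.24 to 0.22 over all. That 10% held 19 of the 44 histone regions. Among its 2348 regions, histone regions were 2 of the 3 largest drops and 6 of the 100 largest. The 2 regions that ranked higher after palbociclib, 26277097 to 26277663 and 26160480 to 26160557, differed by −0.28 and −0.08 when ranked over the shared regions. Both were weak, at rank 18855 or weaker in every full list, and in the full lists the ranks of the second one overlapped (47934 and 49848, then 32256 and 55395).

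**Figure D5:**
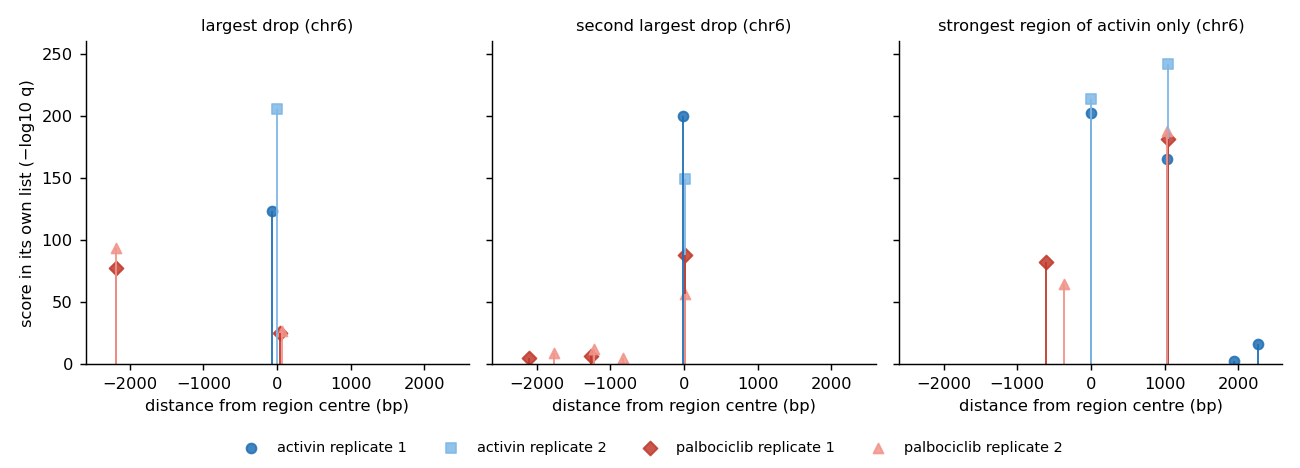
Summit scores (−log10 q in their own list, y axis) around the centre of 3 regions on chromosome 6: the largest drop in rank, the second largest, and the strongest region found with activin only. Points are summits and symbols are libraries; at the largest drop the activin summits reach 123 and 205 and the palbociclib summits 24.6 and 26.3, with a second palbociclib pair at −2182 and −2181 bp.

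Presence and absence of summits were then compared. Of the 203 histone regions, 44 (21.7%) had a summit in every library, beside 20.4% of all regions, and 94 (46.3%) in a single library, beside 50.8%. Regions of both palbociclib libraries and neither activin library numbered 14 (6.90%), beside 5.29% of all. Regions of both activin libraries and neither palbociclib library numbered 10 (4.93%), beside 2.22% of all. None of either set lay over 5 kb from a summit of the other treatment. Among regions in the strongest 10% of at least 1 list, 24 of 32 histone regions (75%) were found in every library, against 84.6% of all such regions.

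The strongest region found with activin only was 26250824 to 26250829 in the 275-kb window, at ranks of 426 and 418 and scores of 202 and 213. The palbociclib libraries had summits at 26250220 and 26250458 instead, with scores of 82.5 and 64.9 and ranks of 6386 and 7590. A neighbour common to all libraries, 26251858 to 26251875, ranked 747 and 282, then 1803 and 1283. The other 9 activin-only regions were weak, with scores of 2.54 to 15.8. Among the palbociclib-only regions, the one at 27833121 was the strongest, at ranks of 6845 and 5039. It was followed by 27113891 to 27113982 in the 30-kb window (scores of 59.0 and 50.8, 932 bp from the nearest activin summit), 26197448 to 26197494 (40.1 and 78.7, 960 bp) and 27799345 to 27799348 (37.3 and 33.8, 567 bp). The other 10 had scores of 2.08 to 31.7. Of the 14 palbociclib-only regions 7 lay within 1 kb of an activin summit, and of the 10 activin-only regions 7 lay within 1 kb of a palbociclib summit.

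In some places the position or the presence of a strong summit differed between libraries without following the treatment. In one such place, activin replicate 1 and palbociclib replicate 2 had their summit at 26123431 and 26123358 (scores of 180 and 144). Activin replicate 2 and palbociclib replicate 1 had theirs at 26124258 and 26124414 (203 and 230). The region 26156592 to 26156594 ranked 144 in activin replicate 1 and 195 and 124 in the palbociclib libraries, and activin replicate 2 listed none there. Activin replicate 2 had a summit at 26158398, at rank 513, where palbociclib replicate 1 also had one at 26158377, at rank 1833. Palbociclib replicate 1 thus listed a summit in both places. These places were singled out after their values were seen. The lists give 1 position per summit and no width, so signal at a position without a summit was not measured here.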

How the data were processed

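SMAD2-bound DNA of T47D cells was sequenced in 4 libraries, and 1 input library served peak calling and has no file analysed here. Bowtie 1.1.0, Picard and MACS2 2.0.9 with hg19 are named in the submitters' processing notes. The settings of these tools are not stated in the labels. Every deposited list belongs to 1 library and pairs each summit with a score. That score was taken as the authors' −log10 q, since no score was under 1.31 and 1.3 corresponds to q = 0.05.

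Summits on chromosomes 1 to 22 and X were ranked by score within each list and joined into regions at gaps of up to 200 bp. Groups were compared with exact two-sided permutation tests over the 4 libraries. Lists hold no read numbers, so depth is unknown and no count model was used. The members, lists and comparisons were chosen with earlier results of these data known. Named regions were the 15 strongest shared by all libraries, the strongest of each window, the group-only regions (the 12 strongest where a set held more), given by name or by range, and the 3 largest rank differences each way without overlap. Only 2 regions qualified in the upward direction. The code was tested on simulated data. Python 3.11.15 with numpy 2.4.6, pandas 2.3.3, scipy 1.17.1 and matplotlib 3.10.9 was used. RefSeq tables on GRCh38.p14 gave gene order and promoters only. The regulators planned beside the histone genes were not analysed here.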

Additional observations from a re-analysis of the deposited data

How the results depend on the processing

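The rank difference of histone regions (0.449) kept its direction in the 15 alternatives run. Leaving out single libraries gave 0.33 to 0.584. The last 2 alternatives were chosen after seeing the data: the strongest 10% of shared regions (0.972) and the best summit within 1 kb (0.427). The count ranked higher after palbociclib (2) was 0 to 7 over the settings and changed by over 1.5 times in 9 of 14. Histone regions made up 1 to 3 of the 3 largest drops and 2 to 4 of the 10 largest over these settings. No label ties same-numbered libraries to each other. Their rank deviations correlated at −0.077 over all shared regions and at 0.193 over the 44 histone regions, and with 2 pairs this does not settle whether the numbers pair them. With the replicate block the rank difference was 0.52 and the mean counts of regions seen in 1 library and not its same-numbered counterpart were 56 (palbociclib) and 36 (activin). The log2 difference in summit number (0.268) became −0.116 among the highest 10000 summits and 0.024 at equal list lengths. The difference in share (−0.000984 percentage points) had no stable sign, at 0.00291 with equal lengths, 0.0024 with widened windows, 0.0103 without the chromosome 1 window and −0.0111 to 0.0091 without each library; it was positive without activin replicate 1 and without palbociclib replicate 1. Among the highest 10000 summits 22 histone regions were in every library, 2 were palbociclib only and 5 activin only. Palbociclib-only regions (14) numbered 4 at a gap of 1000 bp and 22 to 53 without each library; activin-only regions (10) numbered 4 at gaps of 500 and 1000 bp and 11 to 31 without each library. With a library left out, fewer lists have to hold a summit. Elsewhere the cause was not tested. Unknown depth limits every count.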
